A study of Mus musculus with 30 samples.

Results

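Solute carriers are membrane proteins that move amino acids, sugars, metals, ions, nucleotides and vitamins across the plasma membrane and the membranes of organelles. Their genes carry symbols that begin with Slc and a family number. The transcripts described here were those with such a symbol and a mean of at least 2 TPM over 30 libraries of mouse brain microglia, with *Slc1a2*, *Slc1a3*, *Slc2a1*, *Slc2a5*, *Slc4a1* and *Slc4a5* left out. These were 204 transcripts of 196 genes among 14225 transcripts measured. TPM are read counts per transcript length, scaled to a common sum in each library, and allow levels of different genes to be compared. Of 268 transcripts of 250 genes with such a symbol, 58 had a mean under 2 TPM and 6 were transcripts of the 6 genes left out. The members were chosen by their mean level, so levels are given as a description and tests only for differences between groups. The members nearest to the threshold were *Slc37a4* (2.01 TPM), *Slc39a2* (2.12 TPM), a second transcript of *Slc16a10* (2.16 TPM) and *Slc5a10* (2.18 TPM), and those just outside it were *Slc30a9* (1.996 TPM), *Slc41a2* (1.95 TPM), a second transcript of *Slc15a2* (1.89 TPM) and *Slc1a6* (1.83 TPM). For 5 members, *Slc17a6*, *Slc2a6*, *Slc5a10*, *Slc39a2* and *Slc37a4*, the mean fell under 2 TPM without their highest group.

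The microglia came from C57BL/6J offspring of dams that had been injected in gestation with saline (Saline) or with poly(I:C), a double-stranded RNA made to resemble that of a virus, which activates the maternal immune system (MIA). They were isolated from the whole brain with beads against CD11b, a surface protein that other myeloid cells carry as well, and poly(A) RNA was sequenced. The 10 groups of 3 libraries were E17 Saline, E17 MIA, P7 Saline, P7 MIA, P20 Saline, P20 MIA and 4 groups at P60, in which Saline and MIA offspring were each either CTRL or MG-REP. CTRL mice ate control chow, and MG-REP mice ate chow with PLX5622, an inhibitor of the CSF1 receptor that depletes microglia, and then control chow while new microglia filled the brain. No group carried a transgene or a deleted gene. A library was 1 litter at E17, 3 pooled brains at P7 and 1 brain at P20 and P60, the labels name neither sex, litter nor batch, and p-values measure the spread between these libraries.

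Microglia are the resident macrophages of the brain and depend on solute carriers for the uptake of glutamine and other amino acids, for the recycling of material from lysosomes, and for the handling of iron from engulfed cells. Mitochondrial carriers exchange phosphate, adenine nucleotides and metabolites between the cytosol and the matrix. Several other carriers are known from neighbouring cells, among them the vesicular glutamate carriers of neurons, the GABA, glycine and zinc carriers of astrocytes, and the lactate and amino acid carriers of the blood-brain barrier.

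The libraries held an estimated 7994000 to 12839000 counted reads (median 10458000), so that 1 read on a transcript of 1 kb stood for 0.211 to 0.353 TPM. This estimate leaves out transcripts without a matched length and those at the lowest TPM, so it covers only a part of the reads of a library. All 7 microglial markers were present in every group, with summed levels between 16294 and 51118 TPM, against 279 to 3780 TPM for 5 endothelial, 85.3 to 1072 TPM for 6 astrocyte and 28.9 to 1157 TPM for 5 neuronal markers. No marker of these 4 lists was at 0 in all libraries of a group. *Xist*, the transcript of the inactive X chromosome, was at 80.1 to 222 TPM in 26 libraries. It was at 0.14 to 0.29 TPM in libraries 2 and 3 of both P60 CTRL groups. Sex therefore cannot be fully told apart from the change from E17 or P20 to P60, or from MG-REP. In such bulk RNA, fewer cells of a type and less RNA per cell cannot be told apart either.

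The median mean level of the members was 25.1 TPM, with 40 members at 100 TPM or above and 57 under 10 TPM. Together they made up 1.16% (Saline + MG-REP) to 1.51% (P7 MIA) of the TPM of a group. The summed level was 11551 ± 741 TPM in Saline + MG-REP, 13004 ± 1456 TPM in Saline + CTRL and 15123 ± 1832 TPM in P7 MIA (SD, n = 3 each). Between their highest and lowest group, members differed by a median of 2.2-fold.

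Mitochondrial carriers held the largest share of the summed level, 26.9% in 33 transcripts, and its top genes were *Slc25a3*, the phosphate carrier (769.6 TPM over all libraries), and the ADP/ATP carriers *Slc25a4* (672 TPM) and *Slc25a5* (348 TPM). Amino acid and peptide carriers followed with 24.6% in 30 transcripts. Their most abundant members were *Slc38a2*, a sodium-coupled carrier of glutamine and alanine (538 TPM), the lysosomal histidine and peptide carrier *Slc15a3* (436 TPM), the large neutral amino acid carriers *Slc7a8* (416 TPM) and *Slc7a5* (392 TPM), and the taurine carrier *Slc6a6* (389 TPM). The metal carriers (12.6% in 24 transcripts) were led by *Slc11a1*, which removes metals from phagosomes (299 TPM), and by *Slc40a1*, ferroportin, the exporter of cellular iron (229.6 TPM).

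Carriers of nucleosides, vitamins, choline, acyl groups and organic ions (8.98% in 26 transcripts) included *Slc22a17* (237 TPM), the lysosomal nucleoside carrier *Slc29a3* (225 TPM) and the vitamin C carrier *Slc23a2* (134 TPM). Inorganic ion carriers (8.57% in 28 transcripts) included *Slc12a9* (201 TPM), the sodium, potassium and chloride carrier *Slc12a2* (199 TPM) and the endosomal sodium/proton exchanger *Slc9a9* (156 TPM). The nucleotide sugar family SLC35 held 6.38% in 21 transcripts, with *Slc35b2*, the carrier of activated sulfate, in front (169.6 TPM). Smaller shares fell to transmitter carriers (4.56% in 9 transcripts), monocarboxylate and dicarboxylate carriers (2.55% in 12) and sugar carriers (2.2% in 14). A further 2.59% came from 6 transcripts whose proteins are no carriers but are named after one, such as the adaptor *Slc9a3r1* (161 TPM), and 1 transcript, *Slc7a4*, was placed in no class.

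**Figure D1:**
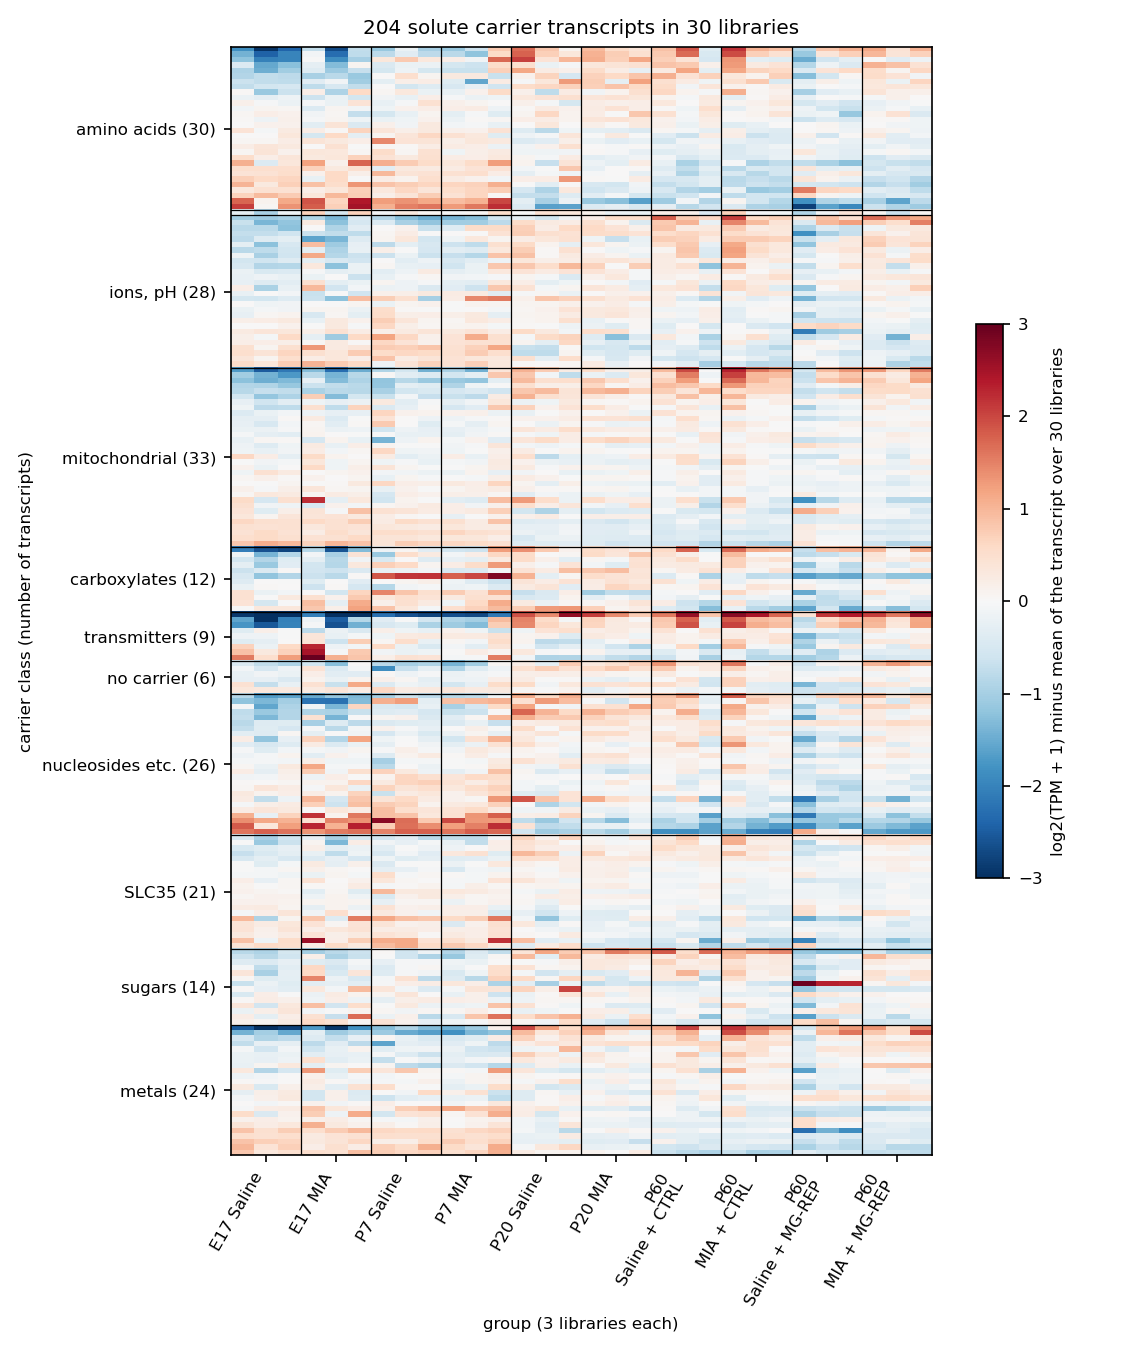
Level of the 204 members in 30 libraries, as log2(TPM + 1) minus the mean of the transcript (color, from -3 to 3), with 1 row per transcript, grouped by carrier class, and 1 column per library in the order of age and treatment; the single unlabelled row between amino acids and ions is *Slc7a4*. Most of the contrast lies between E17 or P7 and the later ages, and *Slc2a6* stands out in the 3 Saline + MG-REP libraries of the sugar carriers.

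Promoters are shown for 4 members on which the comparisons that follow turn: *Slc16a1* (chr3:104638664-104658462), which peaked at P7, *Slc38a2* (chr15:96687392-96699728) and *Slc25a5* (chrX:36795597-36798808), which fell between P7 and P20, and *Slc2a6* (chr2:27021363-27028000), which was high after repopulation. Each sequence is the 250 bases before the start site in RefSeq (GRCm38.p6), written 5′ to 3′ on the strand of the gene, and capitals mark the motifs that were found. The windows are chr3:104638414-104638663 on the plus strand, chr15:96699729-96699978 on the minus strand, chr2:27027999-27028248 on the minus strand and chrX:36795347-36795596 on the plus strand.
*Slc16a1*: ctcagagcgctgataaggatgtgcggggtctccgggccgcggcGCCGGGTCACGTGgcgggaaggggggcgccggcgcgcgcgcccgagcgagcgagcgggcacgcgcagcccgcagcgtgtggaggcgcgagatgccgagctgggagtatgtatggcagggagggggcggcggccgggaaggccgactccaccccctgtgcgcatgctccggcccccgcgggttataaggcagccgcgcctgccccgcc
*Slc38a2*: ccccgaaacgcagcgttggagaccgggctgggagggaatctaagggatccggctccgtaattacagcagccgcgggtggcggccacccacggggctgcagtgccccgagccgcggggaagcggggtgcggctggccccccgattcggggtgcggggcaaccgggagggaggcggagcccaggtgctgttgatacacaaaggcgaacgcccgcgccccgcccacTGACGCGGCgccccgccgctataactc
*Slc2a6*: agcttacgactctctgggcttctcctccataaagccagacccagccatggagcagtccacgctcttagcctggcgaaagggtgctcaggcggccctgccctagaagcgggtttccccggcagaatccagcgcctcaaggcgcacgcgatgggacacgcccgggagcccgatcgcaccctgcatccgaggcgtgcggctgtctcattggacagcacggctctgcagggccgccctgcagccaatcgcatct
*Slc25a5*: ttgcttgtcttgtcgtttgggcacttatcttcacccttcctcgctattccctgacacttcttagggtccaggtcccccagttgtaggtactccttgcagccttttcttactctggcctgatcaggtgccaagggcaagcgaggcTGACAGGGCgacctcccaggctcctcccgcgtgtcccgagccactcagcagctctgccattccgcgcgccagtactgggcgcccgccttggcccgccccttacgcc

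A set of 4 motifs, written out here as their letters, were searched on both strands of 191 promoters of 151 member genes (250 bases before and 50 after the start) and of all 32851 promoters. The antioxidant response core TGACNNNGC was found in 17.8% of member and 12.4% of all promoters, the E-box CACGTG in 13.6% and 7.15%, the amino acid response motif TGATGNAA in 4.19% and 3.97%, and the PU.1 motif GAGGAAGT in 1.57% and 3.2%. In the sequences above, the response core lay at bases -207 to -199 before the start of *Slc16a1* on the opposite strand, where it overlapped the E-box at -200 to -195, at -27 to -19 of *Slc38a2* and at -106 to -98 of *Slc25a5*. The *Slc2a6* window held none of the 4 motifs. A match describes these letters only.

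To follow the carriers through development, P60 was compared with E17 on control chow, separately in Saline and MIA offspring, whose libraries are distinct. In Saline offspring, 55 members rose and 43 fell at an adjusted p under 0.05 (limma on log2(TPM + 1), Benjamini-Hochberg adjustment over all 14225 transcripts), and 106 did not pass. *Slc5a10* is counted among the 55, but its rise is a description with no test, as given below. *Slc17a6*, whose mean also fell under 2 TPM without its highest group, is counted among the 43, and its fall is likewise a description. Over all transcripts 22.1% rose and 25.4% fell, and among the 11333 with a mean of at least 2 TPM these shares were 23.6% and 28.2%. In MIA offspring 47 members rose and 50 fell, with 19.3% and 28.8% over all transcripts. *Slc17a6* is counted among the 50, again as a description with no test, and so is any difference of *Slc5a10* in MIA. In 42 cases a member rose in both series (76.4% of the Saline and 89.4% of the MIA list), in 41 it fell in both (95.3% and 82%), and none was called in opposite directions. Of the 98 called in Saline, 96 had P60 and E17 libraries that did not overlap, as had 89 of the 97 called in MIA. Over all transcripts called, these shares were 96.1% and 90.3%, against 98% and 91.8% of the members called. The median change of the members was 0.10 in Saline and 0.013 in MIA on the log2 scale, against -0.0125 and -0.105 over all transcripts. In MIA the split depended on scaling, with 61 higher and 42 lower under median-ratio scaling, which moved the median of all transcripts by 0.0977, and 58 and 43 under quantile normalization. With log2 *Xist* as a covariate 87 of the 98 calls in Saline and 85 of the 97 in MIA were kept.

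Among amino acid carriers, 12 fell and 8 rose of 30 in Saline offspring. For this and the classes below, the shares over all transcripts were 25.4% lower and 22.1% higher in Saline, and 28.8% and 19.3% in MIA. No class was tested against these shares. *Slc38a2* was at 964, 584 and 785 TPM in the E17 Saline libraries and at 289, 323 and 389 TPM in Saline + CTRL at P60 (log2 fold change -1.20 ± 0.18, adjusted p = 8.04e-06), and at 875, 689 and 1191 TPM and 278, 311 and 289.8 TPM in the MIA libraries (log2 fold change -1.61 ± 0.18, adjusted p = 1.26e-07). The groups did not overlap in either series. Lower at P60 were also the neutral amino acid carriers *Slc38a5* (-1.72 in Saline, -2.46 in MIA), *Slc1a4* (-1.68 and -2.08), the glutamine carrier *Slc1a5* (-1.21 and -1.20), *Slc15a3* (-1.07 and -0.90), *Slc7a5* (-0.91 and -1.60) and its partner chain *Slc3a2* (-0.65 and -0.79). *Slc7a8*, the second large neutral amino acid carrier, did not pass (0.12 and 0.12), and its libraries lay around a mean of 416 TPM at E17 and 460.4 TPM at P60 in Saline. Higher at P60 were the lysosomal amino acid carrier *Slc36a1* (78.1, 89.6 and 92.9 TPM at E17, 193, 123 and 170.3 TPM at P60, log2 fold change 0.87 ± 0.14, adjusted p = 2.51e-05) and the lysosomal histidine carrier *Slc15a4* (0.31 in Saline, 0.45 in MIA).

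The steepest rises of amino acid and transmitter carriers were in genes known from astrocytes and neurons. *Slc17a7*, the vesicular glutamate carrier of excitatory neurons, was at 2.87, 1.93 and 1.60 TPM at E17 and at 83.8, 174 and 50.5 TPM at P60 in Saline offspring (log2 fold change 4.89 ± 0.48, adjusted p = 1.68e-08). The GABA carrier *Slc6a11* rose by 2.95, the glycine carrier *Slc6a9* by 2.61, and *Slc7a10*, a carrier of D-serine and glycine, by 3.19. The cystine/glutamate exchanger *Slc7a11* rose by 1.54 in both series. Astrocyte markers moved with these rises: the summed level of all 6 was 121 to 181 TPM in E17 Saline and 256 to 884 TPM in Saline + CTRL, and 85.3 to 254 TPM and 572 to 1072 TPM in the MIA groups. In Saline, the 5 neuronal markers *Npas4*, *Npy*, *Tubb3*, *Snap25* and *Stmn2* summed to values lower at P60 (154 to 321 TPM in E17 Saline, 46.0 to 148 TPM in Saline + CTRL). In MIA their ranges overlapped (188 to 1157 TPM in E17 MIA, 87.7 to 199 TPM in MIA + CTRL). *Syt1* and *Rbfox3*, also on the list of neuronal markers, were not among the transcripts measured. Whether this sum follows mature neurons was not tested. With the astrocyte markers as a covariate, the change was 3.74 for *Slc17a7*, 1.10 for *Slc6a11* and 1.26 for *Slc7a10*, and 70 of the 98 calls in Saline and 63 of the 97 in MIA were kept. In MIA the same covariate turned the direction of *Slc6a11* (from 2.38 to -0.22) and of *Slc7a11* (from 1.54 to -0.030).

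Among the 3 most abundant mitochondrial carriers, *Slc25a3* and *Slc25a5* fell with age. *Slc25a3* was at 1028, 1019 and 1023 TPM at E17 and 546, 625 and 502 TPM at P60 in Saline (log2 fold change -0.88 ± 0.08, adjusted p = 5.15e-09), without overlap. *Slc25a5* fell by 0.92 and 0.87 on the log2 scale in Saline and MIA, while *Slc25a4*, the ADP/ATP carrier of muscle and brain, did not pass (0.082 and 0.19). The dicarboxylate carrier *Slc25a10* fell (-1.63 in both series), as did the carnitine/acylcarnitine carrier *Slc25a20* (-0.81 and -0.69). Of 33 mitochondrial carriers 9 rose and 6 fell in Saline, and 5 rose and 8 fell in MIA. The largest rise was in the glutamate carrier *Slc25a18* (3.10 and 3.44), which was 1.55 with astrocyte markers as a covariate. Mitoferrin 1, *Slc25a37*, which brings iron into mitochondria, was at 42.8, 47.5 and 45.8 TPM at E17 and 129, 99.5 and 155 TPM at P60 (log2 fold change 1.45 ± 0.15, adjusted p = 3.09e-08).

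**Figure D2:**
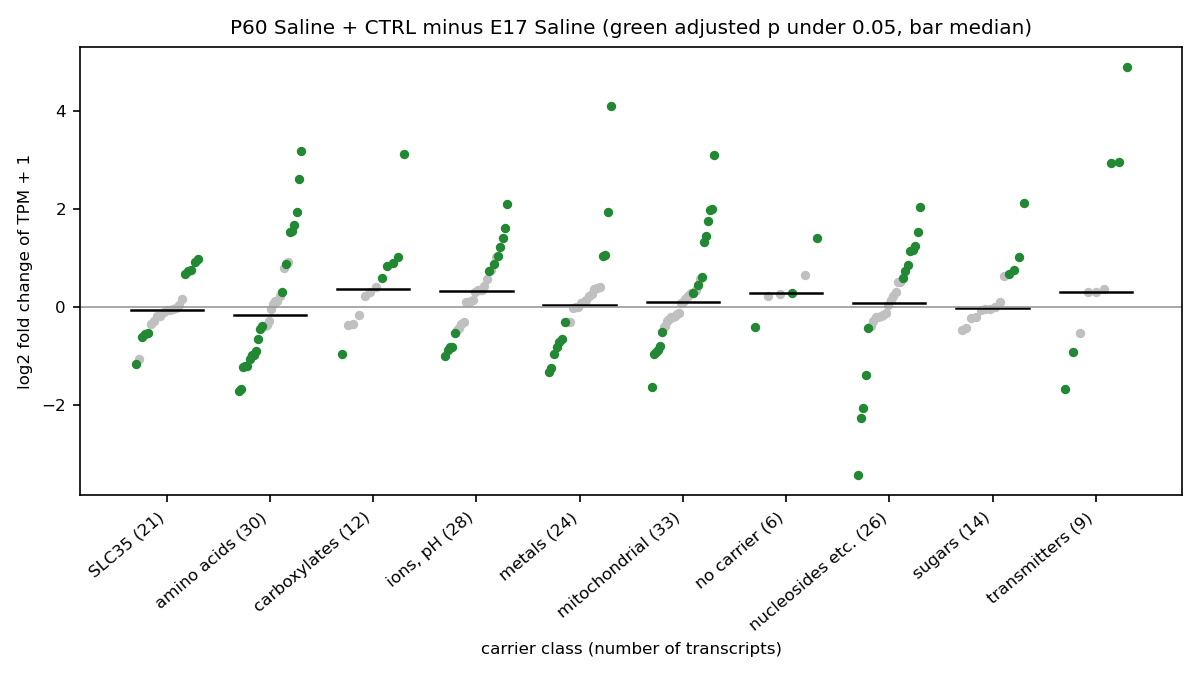
Log2 fold change of TPM + 1 from E17 Saline to P60 Saline + CTRL (y axis) for each member, by carrier class (x axis, with the number of transcripts); green points have an adjusted p under 0.05, gray points do not, and bars are class medians. Transmitter, metal and amino acid carriers reach the largest rises, 4.89 for *Slc17a7* and 4.09 for *Slc39a12*, and *Slc43a3* has the largest fall, -3.43; *Slc7a4*, which is in no class, is not drawn.

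Iron and zinc carriers moved in both directions, with 4 of 24 metal carriers higher and 7 lower in Saline, and 5 and 8 in MIA. *Slc40a1* fell from 375, 285 and 341 TPM to 225, 181 and 203 TPM in Saline (log2 fold change -0.71 ± 0.17, adjusted p = 0.00132), and the copper carrier *Slc31a1* from 225, 159 and 179 TPM to 81.8, 72.7 and 67.0 TPM (log2 fold change -1.33 ± 0.14, adjusted p = 4.35e-08). Neither pair of groups overlapped. Both transcripts of *Slc11a2*, the endosomal iron carrier, fell (-1.25 and -0.97 in Saline, -0.79 and -0.63 in MIA), as did the zinc importer *Slc39a1* (-0.82 and -0.74). *Slc11a1* did not pass (-0.004 and 0.16). Higher at P60 were *Slc46a1*, the proton-coupled folate carrier that has also been described as a heme carrier (1.03 and 1.01), and *Slc39a12*, a zinc importer known from astrocytes (4.09 and 3.87, and 2.65 in Saline with astrocyte markers as a covariate).

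Of the carriers of nucleosides, vitamins and organic ions, 8 of 26 rose and 5 fell in Saline, and 4 and 5 in MIA. *Slc43a3*, which takes up purine bases, fell most: it was at 66.0, 74.1 and 67.4 TPM at E17 and 5.15, 5.18 and 6.26 TPM at P60 in Saline (log2 fold change -3.43 ± 0.21, adjusted p = 1.13e-11), and at 54.1, 63.2 and 67.9 TPM and 6.82, 4.38 and 4.22 TPM in MIA (log2 fold change -3.37 ± 0.21, adjusted p = 1.54e-11). The choline-like carrier *Slc44a5* (-2.27 and -3.21) and *Slc23a3* of the vitamin C carrier family (-2.06 and -2.14) were lower at P60, and *Slc29a3* was higher (0.85 and 0.94). Among sugar carriers 4 of 14 rose and none fell in Saline, *Slc5a10* among them. *Slc5a10*, a sodium-coupled carrier of mannose and fructose, was at 0.370, 0.290 and 0.690 TPM at E17 and 7.77, 2.56 and 6.88 TPM at P60 (log2 fold change 2.12). Saline + CTRL was its highest group, without which its mean was under 2 TPM, so this difference is given as a description with no test. In MIA 3 rose and 1 fell, the glucose carrier *Slc2a3* (-0.78). Monocarboxylate and dicarboxylate carriers counted 5 rises and 1 fall of 12 in Saline, and 4 and 2 in MIA, with the citrate carrier *Slc13a5* in front (3.12 and 2.87). Inorganic ion carriers counted 7 rises and 5 falls of 28 (9 and 5 in MIA), and SLC35 carriers 5 and 4 of 21 (4 and 4 in MIA).

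Endothelial markers also differed between ages. Their summed level was 763 to 2426 TPM in E17 Saline and 746 to 1191 TPM in Saline + CTRL, and 1077 to 3780.3 TPM and 798 to 1604 TPM in the MIA groups. With these markers as a covariate, 96 of the 98 calls in Saline and 85 of the 97 in MIA were kept. The change was -1.29 for *Slc38a5*, -1.27 for *Slc1a4*, -0.57 for *Slc7a5*, -1.07 for *Slc38a2* and -3.43 for *Slc43a3* in Saline.

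**Figure D3:**
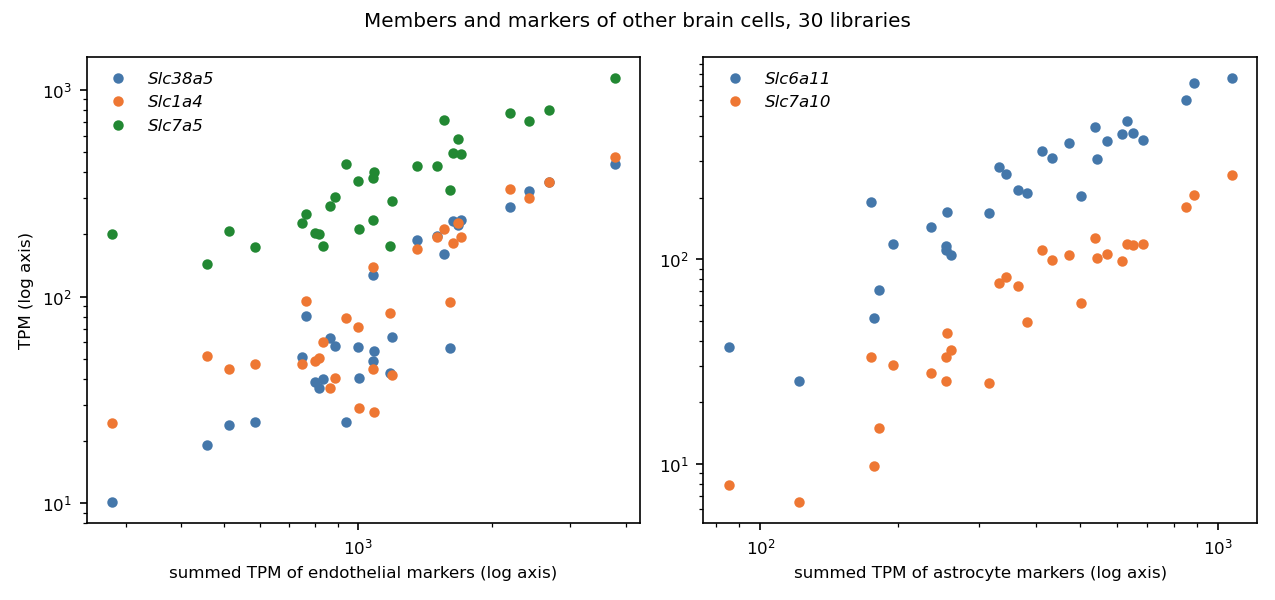
Level of 3 amino acid carriers against the summed TPM of 5 endothelial markers (left) and of 2 transmitter and amino acid carriers against the summed TPM of 6 astrocyte markers (right), 1 point per library for 30 libraries, all axes logarithmic. In both panels high carrier levels lie at high marker sums, and the point with the lowest endothelial sum, 279 TPM, is a Saline + MG-REP library; all points of a library share its depth and scaling.

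The steps between ages were compared next, averaged over Saline and MIA. From E17 to P7, 20 members rose and 6 fell (6.76% and 4.03% of all transcripts). *Slc16a1*, the carrier of lactate and other monocarboxylates (MCT1), changed most. It was at 89.6, 54.9 and 68.2 TPM in E17 Saline and 79.6, 71.3 and 129 TPM in E17 MIA, and at 462, 559.6 and 564 TPM in P7 Saline and 441, 506 and 888 TPM in P7 MIA (log2 fold change 2.79 ± 0.21, adjusted p = 3.43e-09). All P7 libraries were above all E17 libraries. The organic cation exporter *Slc47a1* rose from a mean of 1.27 TPM to 10.8 TPM (log2 fold change 2.37 ± 0.27, adjusted p = 2.1e-06), and *Slc13a5* by 1.97. The summed endothelial markers were 763 to 2426 TPM in E17 Saline, 1077 to 3780.3 TPM in E17 MIA, 1560.5 to 1704 TPM in P7 Saline and 1358 to 2679 TPM in P7 MIA. With them as a covariate all 26 calls were kept, and the change of *Slc16a1* was 2.78. With the astrocyte markers, 15 of the 26 were kept. With only the groups compared in the model 9 members passed, without library 3 of E17 Saline 15, and without library 2 of P7 Saline 17.

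From P7 to P20, 51 members rose and 53 fell (21.6% and 29.1% of all transcripts), or 63 and 48 under median-ratio scaling and 64 and 49 under quantile normalization. *Slc5a10* is counted among the 51 and *Slc17a6* among the 53, both as descriptions with no test. *Slc43a3* dropped from 60.6, 74.5 and 75.5 TPM to 13.8, 9.44 and 10.2 TPM in Saline and from 65.6, 76.3 and 71.5 TPM to 11.3, 9.62 and 12.7 TPM in MIA (log2 fold change -2.56 ± 0.15, adjusted p = 1.34e-12). *Slc16a1* fell back to 261, 103 and 130.0 TPM in P20 Saline and 181, 167 and 165 TPM in P20 MIA (log2 fold change -1.78 ± 0.21, adjusted p = 1.84e-07, and -1.21 with endothelial markers as a covariate). Neither gene had P7 and P20 libraries that overlapped. *Slc38a2* fell by 1.01 on the log2 scale, *Slc38a5* by 2.35 and *Slc1a4* by 2.20. In the same step *Slc25a37* rose from 38.6, 52.0 and 56.2 TPM to 135, 149 and 101 TPM in Saline and from 54.2, 57.5 and 51.1 TPM to 151, 163 and 123 TPM in MIA (log2 fold change 1.39 ± 0.10, adjusted p = 1.56e-10). *Slc36a1* (1.04), *Slc46a1* (0.96), *Slc29a3* (0.73) and the choline carrier *Slc44a1* (1.39) rose too, and *Slc17a7* rose by 4.22 and *Slc39a12* by 2.14. Over the 48 transcripts of 44 member genes on a list of 49 carriers known from myeloid cells, 10 rose and 23 fell in this step. Other markers moved with it. In Saline, the summed level of 4 oligodendrocyte markers was 122 to 218 TPM at P7 and 955 to 2619 TPM at P20, that of the border macrophage markers 1790.0 to 1983 and 688 to 889 TPM, that of the microglial markers 22722 to 28393 and 35998 to 44878 TPM, and that of the endothelial markers 1560.5 to 1704 and 511 to 1001 TPM. In MIA these sums were 124 to 240.2 and 1042 to 1552 TPM, 1025 to 2063 and 624 to 713 TPM, 19749 to 28804 and 43326 to 48585 TPM, and 1358 to 2679 and 865 to 1084 TPM. With endothelial markers as a covariate 87 of the 104 calls were kept, and the part of the oligodendrocyte and border macrophage markers was not tested.

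From P20 to P60, 4 members rose and 20 fell (4.24% and 7.71% of all transcripts). The split was 9 and 14 under median-ratio scaling, and 10 and 18 under quantile normalization. *Slc31a1* fell from 152, 135 and 137 TPM in P20 Saline and 138, 128 and 151 TPM in P20 MIA to 81.8, 72.7 and 67.0 TPM in Saline + CTRL and 80.1, 65.5 and 67.0 TPM in MIA + CTRL (log2 fold change -0.95 ± 0.10, adjusted p = 1.66e-06). *Slc15a3* fell by 0.93, *Slc43a3* by 0.95 and *Slc16a1* by 0.85. The anion exchanger family member *Slc26a10* rose (1.04). With log2 *Xist* as a covariate 5 of the 24 calls were kept, and without library 2 of MIA + CTRL, which is one of the libraries with almost no *Xist*, 13 members passed.

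**Figure D4:**
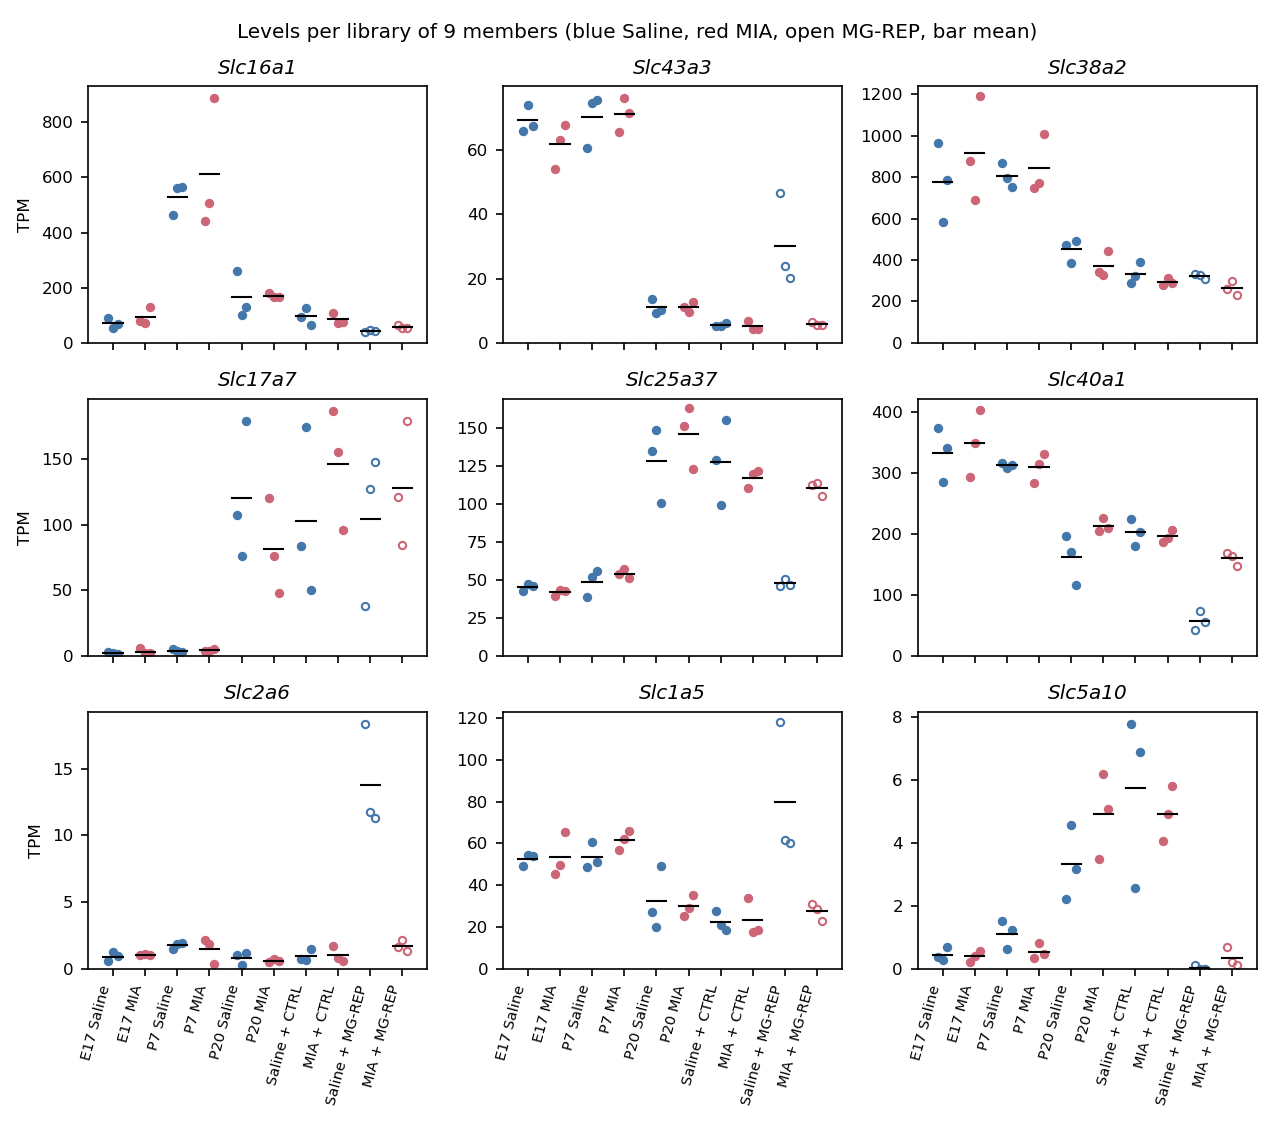
TPM of 9 members in each library (y axis, linear from 0), by group (x axis); blue points are Saline, red points MIA, open points MG-REP, and bars group means. *Slc16a1* peaks at P7, *Slc43a3* and *Slc38a2* step down and *Slc25a37* and *Slc17a7* step up between P7 and P20, and *Slc43a3*, *Slc2a6*, *Slc1a5*, *Slc40a1* and *Slc25a37* in Saline + MG-REP lie apart from the 3 other P60 groups, while *Slc5a10* is low in both MG-REP groups.

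To learn whether the maternal treatment changed the carriers, MIA was compared with Saline at each age and over all 4 ages on control chow. No member passed at E17, P7, P20 or P60 or over the ages, and no transcript of the whole table did (0% in each of the 5 comparisons, limma with Benjamini-Hochberg adjustment). At an unadjusted p under 0.05 there were 7 members at E17, 6 at P7, 15 at P20, 1 at P60 and 8 over the ages, against 585, 335, 457, 256 and 477 transcripts in all, which is 3.43%, 2.94%, 7.35%, 0.49% and 3.92% of the members and 4.11%, 2.36%, 3.21%, 1.8% and 3.35% of all. Over the ages, the smallest p was that of *Slc15a3*. Its mean was 524 TPM in Saline and 393 TPM in MIA (log2 fold change -0.39 ± 0.11, adjusted p = 0.931), and the libraries overlapped. At E17 it was at 668, 616 and 638 TPM in Saline and 351, 622 and 403 TPM in MIA (log2 fold change -0.52 ± 0.22, adjusted p = 0.754).

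At P7 the lowest p was that of the fatty acid carrier *Slc27a4*, at 24.9, 48.8 and 48.8 TPM in Saline and 50.7, 49.0 and 61.2 TPM in MIA (log2 fold change 0.44 ± 0.17, adjusted p = 1.00). At P20 it was that of *Slc47a1*, at 7.64, 14.3 and 11.0 TPM in Saline and 5.17, 3.24 and 5.01 TPM in MIA (log2 fold change -1.11 ± 0.38, adjusted p = 1.00). In both cases the 3 libraries of a group lay on one side of the other 3. At P60 *Slc9a3r1*, the adaptor of the sodium/proton exchanger *Slc9a3*, came first (158, 213 and 107 TPM in Saline + CTRL, 257, 175 and 180.4 TPM in MIA + CTRL, log2 fold change 0.39 ± 0.19, adjusted p = 1.00), with overlap. A first transcript of *Slc11a2* was among the 3 smallest p at E17 (-0.42), at P20 (-0.49) and over the ages (-0.24, adjusted p = 0.931). Choroid plexus markers summed to 3114, 1424 and 2811 TPM in E17 Saline and 3584, 1359 and 12362 TPM in E17 MIA. At P7 the sums were 3439, 3031 and 1299 TPM in Saline and 1937, 10084 and 10125 TPM in MIA. At P20 they were 3528, 7140 and 6651 TPM in Saline and 4618, 3102 and 4466 TPM in MIA. At P60 they were 2659, 1255 and 501 TPM in Saline + CTRL and 1386, 1828 and 1110 TPM in MIA + CTRL. The Saline and MIA libraries thus overlapped at each age.

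Depletion and repopulation was examined at P60 by comparing MG-REP with CTRL. In Saline offspring 13 members rose and 38 fell (11.9% and 14.9% of all transcripts), and 153 did not pass. *Slc2a6* is counted among the 13 and *Slc5a10* among the 38, but both differences are descriptions with no test, as given below. With only the groups compared in the model 28 passed. The libraries of 47 of the 51 (92.2%) did not overlap, against 95% of all transcripts called. The median member changed by -0.281 on the log2 scale, against -0.145 over all transcripts. The split depended on scaling, with 20 higher and 23 lower under median-ratio scaling and 15 and 28 under quantile normalization, which moved the median of all transcripts by 0.0961 and 0.0973. Of the 48 myeloid transcripts 7 rose and 14 fell.

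The largest rises were in *Slc2a6*, *Slc43a3* and *Slc1a5*, while 4 of 14 sugar carriers fell and 2 rose, and 5 of 26 carriers of nucleosides, vitamins and organic ions fell and 1 rose. For these and the classes below, the shares over all transcripts were 14.9% lower and 11.9% higher. *Slc2a6*, a lysosomal hexose carrier (GLUT6), was at 0.700, 0.640 and 1.48 TPM in Saline + CTRL and 18.4, 11.7 and 11.3 TPM in Saline + MG-REP (log2 fold change 2.92). It is a member only through this group, without which its mean was under 2 TPM, so its differences from Saline + MG-REP are a description with no test. In the other 8 groups no library of *Slc2a6* was above 2.18 TPM. *Slc43a3* rose from 5.15, 5.18 and 6.26 TPM to 46.5, 24.1 and 20.3 TPM (log2 fold change 2.17 ± 0.21, adjusted p = 3.23e-08), and *Slc1a5*, the glutamine carrier ASCT2, from 27.6, 20.9 and 18.7 TPM to 118, 61.5 and 60.2 TPM (log2 fold change 1.74 ± 0.27, adjusted p = 3.13e-05). In all 3 genes every MG-REP library was above every CTRL library, and library 1 was the highest. The glucose carrier *Slc2a3* rose by 0.84. Of the mitochondrial carriers 5 of 33 rose, the calcium-regulated ATP-Mg/phosphate carrier *Slc25a24* (1.00), *Slc25a10* (0.80), *Slc25a3* (0.59), the glutathione carrier *Slc25a39* (0.48) and *Slc25a5* (0.41), and 4 fell. *Slc25a3* was at 546, 625 and 502 TPM in Saline + CTRL and 903, 795 and 821 TPM in Saline + MG-REP, without overlap.

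Among metal carriers 3 of 24 fell and 1 rose. *Slc40a1* was at 225, 181 and 203 TPM in Saline + CTRL and 41.9, 74.3 and 55.4 TPM in Saline + MG-REP (log2 fold change -1.84 ± 0.17, adjusted p = 1.2e-08), and mitoferrin 1, *Slc25a37*, at 129, 99.5 and 155 TPM and 46.3, 50.9 and 46.5 TPM (log2 fold change -1.38 ± 0.15, adjusted p = 1.32e-07). The repopulated libraries lay below all CTRL libraries in both. *Slc46a1* fell by 0.78 and the zinc exporter *Slc30a1* by 0.68, while the zinc carrier *Slc30a5* rose (0.48) and *Slc11a1* did not pass (0.35, adjusted p = 0.165). Of 28 ion carriers 8 fell and 1 rose. *Slc24a3*, which exchanges sodium for calcium and potassium, was at 55.7, 60.05 and 53.0 TPM and 10.2, 19.0 and 23.2 TPM (log2 fold change -1.70 ± 0.18, adjusted p = 9.45e-08), and *Slc12a2* fell by 1.29 and *Slc12a9* by 0.59. *Slc5a10* was at 7.77, 2.56 and 6.88 TPM in Saline + CTRL and listed at 0.11, 0 and 0 TPM in Saline + MG-REP, a description with no test, since Saline + CTRL was the group that made it a member.

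Of 30 amino acid carriers 6 fell and 3 rose. *Slc7a8* was lower (422, 374 and 585 TPM in Saline + CTRL, 367, 280.5 and 259 TPM in Saline + MG-REP, log2 fold change -0.60 ± 0.16, adjusted p = 0.00647), as were *Slc38a5* (-1.56), the proton-coupled carrier *Slc36a2* (-1.32) and the lysosomal arginine sensor *Slc38a9* (-0.59). *Slc38a2* did not pass (-0.036). The lysosomal carrier *Slc46a3* (-0.90), the sugar carriers *Slc37a3* (-0.94) and *Slc50a1* (-0.76), the vesicular polyamine carrier *Slc18b1* (-1.15) and *Slc16a1* (-1.11) were lower too. None of the 12 carboxylate, 9 transmitter and 21 SLC35 carriers rose, while 3, 1 and 3 of them fell. Over all transcripts 11.9% rose and 14.9% fell, and no class was tested against these shares.

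Other markers moved with this comparison. The 7 microglial markers summed to 35292 to 51118 TPM in Saline + CTRL and 24895 to 28374 TPM in Saline + MG-REP, the 5 endothelial markers to 746 to 1191 and 279 to 586 TPM, 4 pericyte and fibroblast markers to 329 to 629 and 131 to 309.6 TPM, and 5 border macrophage markers to 419.6 to 566 and 685 to 1318 TPM. Neutrophil and monocyte markers, 5 in the table, summed to 614 to 786 TPM and, in Saline + MG-REP, to 83.7, 4592 and 314 TPM. With endothelial markers as a covariate 35 of the 51 calls were kept. The change was then -0.40 for *Slc16a1* (adjusted p = 0.236) and -0.39 for *Slc38a5* (adjusted p = 0.319), and -1.64 for *Slc40a1* and 2.17 for *Slc43a3*. With log2 *Xist* 34 of the 51 were kept. The part of the myeloid markers in these changes was not tested.

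In MIA offspring, 1 member passed, *Slc5a10*, which was lower in MG-REP than in CTRL (0.387% of all transcripts rose and 0.169% fell). At an unadjusted p under 0.05 there were 8 members. *Slc5a10* was at 4.07, 4.91 and 5.79 TPM in MIA + CTRL and 0.700, 0.220 and 0.110 TPM in MIA + MG-REP (log2 fold change -2.16), without overlap. Its mean of 2.18 TPM over all libraries was near the threshold of membership and rested on the P20 and P60 CTRL groups, MIA + CTRL among them. This difference is therefore a description with no test. *Slc11a1* was next in p, at 227, 294 and 298 TPM in MIA + CTRL and 407, 427 and 402 TPM in MIA + MG-REP (log2 fold change 0.60 ± 0.18, adjusted p = 0.209). *Slc2a6* was at 1.69, 0.780 and 0.550 and 1.60, 2.18 and 1.36 TPM, *Slc43a3* at 6.82, 4.38 and 4.22 and 6.56, 5.65 and 5.60 TPM, and *Slc40a1* at 187, 194 and 207 and 169, 164 and 147 TPM. None of these 3 passed. Microglial markers summed to 29621 to 45056 TPM in MIA + CTRL and 39389 to 43866 TPM in MIA + MG-REP, and endothelial markers to 798 to 1604 and 818 to 1078 TPM. Border macrophage markers summed to 410.2 to 439 TPM in MIA + CTRL and 266 to 396 TPM in MIA + MG-REP, without overlap and in the opposite direction to Saline.

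The libraries of the Saline and the MIA comparison are distinct, and the difference between both MG-REP effects was tested. It was called for 19 members, 11 higher and 8 lower in MIA than in Saline (4.42% and 6.09% of all transcripts). *Slc2a6* is counted among the 8, but its difference is a description with no test. Of the 51 called in Saline, 12 of the 13 that rose and 31 of the 38 that fell had the same sign in MIA, where 73 of all 204 members were above 0. The difference was -1.98 ± 0.30 for *Slc43a3* (adjusted p = 8.76e-05) and -1.46 ± 0.39 for *Slc1a5* (adjusted p = 0.0154). Among the members that had fallen in Saline it was 1.57 ± 0.25 for *Slc24a3* (adjusted p = 0.000164), 1.55 ± 0.24 for *Slc40a1* (adjusted p = 0.000106) and 1.29 ± 0.21 for *Slc25a37* (adjusted p = 0.000178). With endothelial markers as a covariate 15 of the 19 were kept, and with log2 *Xist* all 19. The *Xist* covariate could hardly alter this difference. In both CTRL groups *Xist* was high in library 1 and almost absent in libraries 2 and 3, and it was high in every MG-REP library. Without library 1 of Saline + CTRL 11 members passed, and without library 1 of Saline + MG-REP 12.

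**Figure D5:**
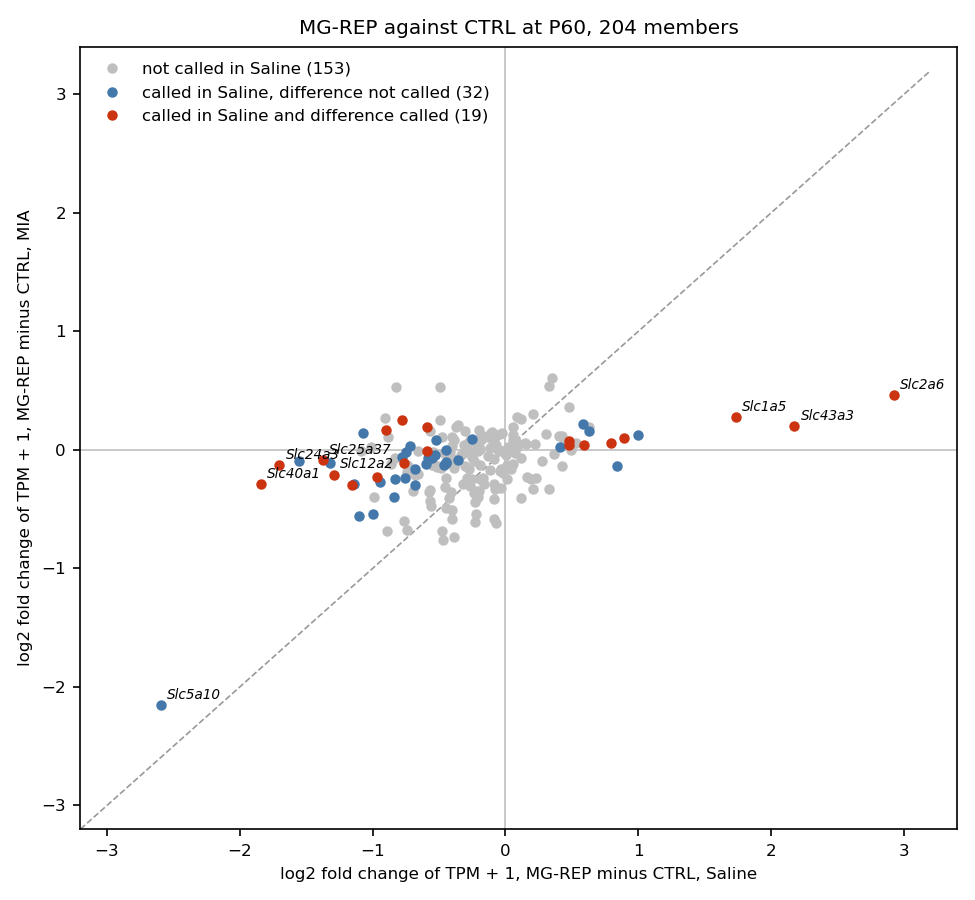
Log2 fold change of TPM + 1 for MG-REP against CTRL at P60 in Saline (x axis) and in MIA offspring (y axis), 1 point per member (204); red points are the 19 whose difference passed, blue points the other 32 called in Saline, gray points the 153 not called in Saline, and the dashed line marks equal change. Points spread along the x axis, from -2.60 to 2.92, and stay between -0.76 and 0.60 on the y axis except *Slc5a10* (-2.16), which lies near the dashed line. The points of *Slc2a6*, drawn in red, and of *Slc5a10* are descriptions with no test.

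Within repopulated microglia, MIA + MG-REP was set against Saline + MG-REP, libraries that the comparisons above share. Here 31 members were higher and 13 lower in MIA (10.9% and 11% of all transcripts), or 22 and 17 under median-ratio scaling. *Slc2a6* is counted among the 13 as a description with no test. *Slc40a1* was at 41.9, 74.3 and 55.4 TPM in Saline + MG-REP and 169, 164 and 147 TPM in MIA + MG-REP (log2 fold change 1.50 ± 0.17, adjusted p = 4.36e-07), and *Slc24a3* at 10.2, 19.0 and 23.2 TPM and 49.7, 41.7 and 49.7 TPM (log2 fold change 1.45 ± 0.18, adjusted p = 1.85e-06). The groups did not overlap in either gene. *Slc12a2* (1.12), *Slc25a37* (1.19) and *Slc46a3* (0.93) were higher in MIA + MG-REP too, and *Slc43a3* (-2.09), *Slc1a5* (-1.44), *Slc2a3* (-1.05) and *Slc15a3* (-0.83) lower. Without library 1 of Saline + MG-REP 21 members passed, and without library 1, 2 or 3 of MIA + MG-REP 29, 28 and 28. With endothelial markers as a covariate 28 of the 44 calls were kept.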

How the data were processed

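The 30 libraries of CD11b bead-isolated microglia fell into 10 groups of 3 by their sample labels. The deposited values are TPM, computed by the authors for 14225 transcripts after alignment to mm10 with Rsubread, counting with featureCounts on a UCSC annotation and a filter on low CPM. The formula of the TPM is not given in the sources used here, and a further column gives the authors' expression module of each transcript. No count test was made, since the values are TPM. The depth of a library was inferred from how far apart its lowest TPM values lay.

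In R 4.3.3, limma 3.58.1 was fitted to log2(TPM + 1) of all transcripts, with 10 groups in 1 model (20 residual degrees of freedom), empirical Bayes moderation with a trend, two-sided tests in 14 comparisons and Benjamini-Hochberg adjustment over 14225 transcripts, called at an adjusted p under 0.05. Each fold change, with its SE, is on that log2(TPM + 1) scale and so understates changes of low transcripts. The values of some members are not reported here. Members, classes and lists were chosen with earlier results of these data known. Members named are, per comparison, the 10 largest called rises and falls without overlap, or the 3 smallest p where fewer than 3 passed, the 15 most abundant, the top 3 of each class, 49 carriers known from myeloid cells and those nearest the threshold; others, such as values given to show that a member did not pass, were chosen after their values were seen. Coordinates of 203 of 204 transcripts and promoters came from RefSeq (GRCm38.p6). In a simulation of Saline + MG-REP against Saline + CTRL with 200 of 14225 transcripts changed, 13.4% were called at a log2 change of 0.5, 58.2% at 1 and 90.9% at 2. In it 11 unchanged transcripts were called too. In the data 3805 transcripts were called in this comparison, far more than the simulation changed, so its shares do not carry over to the data.

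The labels number the replicates of every group 1 to 3. Deviations from group means correlated over 0.1 in all 3 same-numbered pairs of libraries, of the 15 pairs of groups checked, only between P20 MIA and P20 Saline (0.238, 0.104 and 0.132), where the block left the count at 0. Alternatives were a replicate block, quantile normalization, a pseudocount of 0.1, a model without the trend, median-ratio scaling, a filter at a mean of 1 TPM, log2 *Xist* added to the model, a model of the compared groups alone, and each library left out. Endothelial and astrocyte marker sums as covariates were added after seeing the data. Plots used matplotlib 3.10.9 under Python 3.11.15.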

Additional observations from a re-analysis of the deposited data

Results flagged for a closer look

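The effect of MG-REP at P60 differed between MIA and Saline offspring in 19 members by the test of the difference itself, in which a positive log2 value means a higher effect in MIA. Positive differences were found for the iron carriers *Slc40a1* (1.55) and *Slc25a37* (1.29), the heme or folate carrier *Slc46a1* (1.03), the ion carriers *Slc24a3* (1.57), *Slc12a2* (1.09) and *Slc12a9* (0.78), and for *Slc46a3* (1.07), *Slc18b1* (0.85), *Slc35e3* (0.73), *Slc50a1* (0.65) and *Slc38a9* (0.58). Negative differences were found for the mitochondrial carriers *Slc25a39* (-0.40), *Slc25a3* (-0.55) and *Slc25a10* (-0.74), the zinc carrier *Slc30a5* (-0.44), the sulfate carrier *Slc26a11* (-0.80), the glutamine carrier *Slc1a5* (-1.46), the purine carrier *Slc43a3* (-1.98) and the hexose carrier *Slc2a6* (-2.46). *Slc46a3*, *Slc18b1*, *Slc35e3*, *Slc50a1* and *Slc38a9* had fallen in Saline + MG-REP. The summed endothelial and microglial markers were lower in all Saline + MG-REP libraries than in all Saline + CTRL libraries, while the ranges of both sums overlapped in MIA. Border macrophage markers were higher in Saline + MG-REP (685 to 1318 TPM) than in Saline + CTRL (419.6 to 566 TPM) and lower in MIA + MG-REP (266 to 396 TPM) than in MIA + CTRL (410.2 to 439 TPM). With endothelial markers as a covariate 15 of the 19 differences were kept, and the part of the microglial and border macrophage markers was not tested. *Slc2a6* is a member only through its level in Saline + MG-REP, so its difference is a description.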

How the results depend on the processing

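No member passed for MIA against Saline at any age under any alternative, and *Slc5a10* was the 1 member called for MG-REP in MIA under each. The level of *Slc5a10* in MIA + CTRL helped to make it a member, so this call is a description. Of the other 8 comparisons, counts of called members moved by over 1.5 times in the following cases. From E17 to P7 26 members became 9 when only the groups compared were fitted and 54 with astrocyte markers as a covariate. From P20 to P60 24 became 5 with log2 *Xist*, 40 with endothelial and 38 with astrocyte markers. For MG-REP in Saline 51 became 28 when only the groups compared were fitted. For the difference of the MG-REP effects 19 became 12 under quantile normalization and 29 with astrocyte markers. Leaving out 1 library gave 82 to 93 members for P60 against E17 in Saline, 86 to 100 in MIA, 15 to 27 for P7 against E17, 93 to 110 for P20 against P7, 13 to 25 for P60 against P20, 35 to 52 for MG-REP in Saline, 1 in MIA, 11 to 21 for the difference, 21 to 43 for MIA + MG-REP against Saline + MG-REP, and 0 for MIA against Saline. With astrocyte markers as a covariate the direction turned for *Slc22a17* in Saline (-0.055) and, in MIA, for *Slc6a11* (-0.22), *Slc7a11* (-0.030) and *Slc48a1* (-0.036), all between E17 and P60. The cause was not tested in these cases. The replicate block gave 97, 97, 21, 104, 24, 54, 1, 22 and 48 members in the order P60 against E17 in Saline and MIA, the 3 steps, MG-REP in Saline and MIA, their difference, and MIA + MG-REP against Saline + MG-REP, and moved no count by over 1.5 times. The same-numbered libraries deviated with correlations of -0.525 to 0.656, so apart from P20 the numbers are taken as names. Over 291 values of named members per setting, the call was lost in 6 with the block, 2 with the other pseudocount, 0 with the filter, 8 without a trend, 41 and 32 with median-ratio scaling and quantile normalization, 35 with log2 *Xist*, 51 with only the groups compared, 36 with endothelial and 24 with astrocyte markers. The 4 values whose direction turned with astrocyte markers are not among these 24. Under quantile normalization the median difference of all transcripts between E17 MIA and E17 Saline moved by -0.114. With 3 libraries a group, depth estimated from TPM and no sex in the labels, small differences of low members cannot be resolved.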

Other observations

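A set of 8 member genes had 2 transcripts each, *Slc3a2*, *Slc9a3r2*, *Slc29a1*, *Slc35a2*, *Slc20a1*, *Slc11a2*, *Slc16a10* and *Slc16a6*. For the amino acid carrier chain *Slc3a2*, the first transcript fell between E17 and P60 in Saline (-0.65) and did not pass after MG-REP (0.055), while the second did not pass in development (0.23) and fell after MG-REP in Saline (-0.68). The mean levels were 44.5 and 4.36 TPM. The phosphate carrier *Slc20a1* fell with age in both transcripts (-0.53 and -0.88). Reads shared by transcripts of a gene could be split between them by the counting, so these values are uncertain.

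Libraries of a group differed most for members known from astrocytes. The SD within groups, on the log2 scale, had a median of 0.263 over the members and 0.252 over all transcripts with a mean of at least 2 TPM. It was over 0.5 for 38 members and reached 0.804 for *Slc7a10*, 0.794 for *Slc6a11* and 0.771 for *Slc6a9*.

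By the authors' modules, which were made from these libraries, 50 members (24.5%) were in module JM, which held 16.3% of all transcripts, 51 (25%) in IM (32.9% of all), 48 (23.5%) in AM (23%), 42 (20.6%) in MIA-IM (19.8%) and 13 (6.37%) in REP-AM (7.97%).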
